A study of Mus musculus with 96 samples.

Results

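The genes of receptors for serotonin (Htr), dopamine (Drd), noradrenaline (Adra and Adrb) and muscarinic acetylcholine (Chrm) were examined in chromatin immunoprecipitation data from mouse hippocampus. A peak was included when the authors had annotated it to a gene whose symbol starts with Htr, Drd, Adra, Adrb or Chrm followed by a digit. This gave 54 of 22815 peaks, at 24 of the 33 receptor genes of the mouse genome with such a symbol. In all, 13117 genes had a peak in any table. Each share below is set beside all peaks or all genes of the kind named with it.

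The samples were hippocampal nuclei of 6 months old C57BL/6N mice of 4 genotypes, housed in their home cages. Wild type (WT) mice were compared with Mutyh-/- mice, Ogg1-/- mice and the double knockout (DKO), which lacks both genes. Ogg1 and Mutyh encode DNA glycosylases, of which the first removes 8-oxoguanine and the second the adenine mispaired with it, and the knockouts were inherited ones, not limited to a chosen cell type. Nuclei were sorted on the neuronal protein NeuN into NeuN+ (neuronal) and NeuN- (non-neuronal) fractions, several animals were pooled per replicate, and each antibody (H3K4me3, H3K27me3, Suz12) was used on 3 replicates per genotype and fraction.

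Receptors for these transmitters sit on the cell surface and, apart from the ion channel of the Htr3 genes, pass the signal to G proteins. Gs raises and Gi/o lowers cyclic AMP, whereas Gq/11 acts through phospholipase C and calcium. In the hippocampus the transmitters arrive from the raphe, the locus coeruleus, the midbrain and the septum, and the receptors that receive them are known to set excitability and plasticity. H3K4me3 is a histone mark of active or poised promoters, H3K27me3 is the repressive mark laid down by Polycomb repressive complex 2 (PRC2), and Suz12 is a subunit of that complex. A promoter with H3K4me3 and H3K27me3 together is called bivalent.

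The promoter sequences of 5 receptor genes are shown because CpG content is the sequence feature compared with the marks further on. They are the bases before the start site in RefSeq on GRCm38.p6, trimmed to leave out annotated exons, with every CpG in capitals. Adra1b, Adra2b, Adra2a and Adrb3 carried peaks for more than one antibody in NeuN+ nuclei. Of these, Adra1b and Adra2b are shown, since the Adra2a window held fewer than 100 bases outside exons, and Drd2, Htr7 and Htr2c were chosen after their values were seen. Drd2 had H3K27me3 without H3K4me3, Htr7 held the single peak called in a knockout, and Htr2c had no peak. Not all genes without a peak were as poor in CpG, as Chrm4 had 30 CpG in its window of 300 bases. The window of Adra1b is chr11:43836490-43836739 on the minus strand with 22 CpG, that of Adra2b is chr2:127362929-127363178 on the plus strand with 23 CpG, and that of Drd2 is chr9:49340153-49340402 on the plus strand with 15 CpG. The window of Htr7 is chr19:36057508-36057610 on the minus strand with 19 CpG in 103 bases, and that of Htr2c is chrX:146962263-146962512 on the plus strand with 5 CpG in 250 bases.
Adra1b: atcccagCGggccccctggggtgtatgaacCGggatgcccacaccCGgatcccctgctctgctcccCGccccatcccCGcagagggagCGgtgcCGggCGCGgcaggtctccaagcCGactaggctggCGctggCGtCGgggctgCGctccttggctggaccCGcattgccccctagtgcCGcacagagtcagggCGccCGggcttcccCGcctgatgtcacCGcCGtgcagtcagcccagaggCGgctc
Adra2b: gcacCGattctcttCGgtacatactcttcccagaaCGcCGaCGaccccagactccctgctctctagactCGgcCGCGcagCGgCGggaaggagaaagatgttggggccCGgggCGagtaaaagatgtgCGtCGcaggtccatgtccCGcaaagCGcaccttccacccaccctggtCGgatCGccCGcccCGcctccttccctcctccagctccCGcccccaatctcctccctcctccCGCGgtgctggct
Drd2: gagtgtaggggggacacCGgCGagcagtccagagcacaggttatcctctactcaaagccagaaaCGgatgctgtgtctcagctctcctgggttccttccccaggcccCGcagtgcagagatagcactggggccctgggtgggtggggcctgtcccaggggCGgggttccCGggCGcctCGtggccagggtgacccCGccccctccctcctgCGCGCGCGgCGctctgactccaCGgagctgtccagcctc
Htr7: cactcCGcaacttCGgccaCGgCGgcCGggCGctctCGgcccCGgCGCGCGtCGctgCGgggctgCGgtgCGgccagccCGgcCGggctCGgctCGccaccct
Htr2c: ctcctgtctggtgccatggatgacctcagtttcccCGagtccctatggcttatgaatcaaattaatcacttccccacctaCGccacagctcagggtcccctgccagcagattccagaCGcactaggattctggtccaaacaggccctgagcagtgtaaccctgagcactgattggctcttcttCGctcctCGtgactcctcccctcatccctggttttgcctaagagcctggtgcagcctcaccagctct
The Htr7 window lay wholly inside the H3K4me3 peaks of both fractions, and the Adra1b window shared 152 bases with the neuronal H3K4me3 peak and 128 bases with the neuronal H3K27me3 peak. The Adra2b window shared 9 bases with the neuronal Suz12 peak and 0 with its H3K4me3 peak, and the Drd2 window shared 0 bases with any peak of its gene.

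Receptor genes were mainly seen through H3K4me3 in neurons. In NeuN+ nuclei 24 of 12628 H3K4me3 peaks lay at 23 receptor genes, and all 24 were promoter peaks. In NeuN- nuclei 3 of 3270 did, at Htr7, Adra2a and Adra2c. H3K27me3 was found at 15 of 4132 peaks in NeuN+ nuclei, at Adra1b, Adra2b, Adrb3 and Drd2, and at 10 of 1698 peaks in NeuN- nuclei, at 9 genes. Suz12 had 2 receptor peaks of 775 in NeuN+ nuclei, at Adra2a and Adra2b, and 0 of 312 in NeuN- nuclei.

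The families differed in coverage. All 9 adrenergic receptor genes had a peak, as did 4 of 5 dopamine, 9 of 14 serotonin and 2 of 5 muscarinic receptor genes. The 9 genes with no peak were Htr1b, Htr2b, Htr2c, Htr3a, Htr3b, Drd3, Chrm2, Chrm4 and Chrm5, which include both ion channel genes. Grouped by the G protein, neuronal H3K4me3 was present at 8 of 8 Gs-coupled, 6 of 9 Gq/11-coupled and 9 of 14 Gi/o-coupled receptor genes. H3K27me3 in NeuN- nuclei was present at 6 Gi/o-coupled, 3 Gs-coupled and 0 Gq/11-coupled genes. These are counts of consensus peaks, so a gene below the peak threshold is listed as having none.

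**Figure D1:**
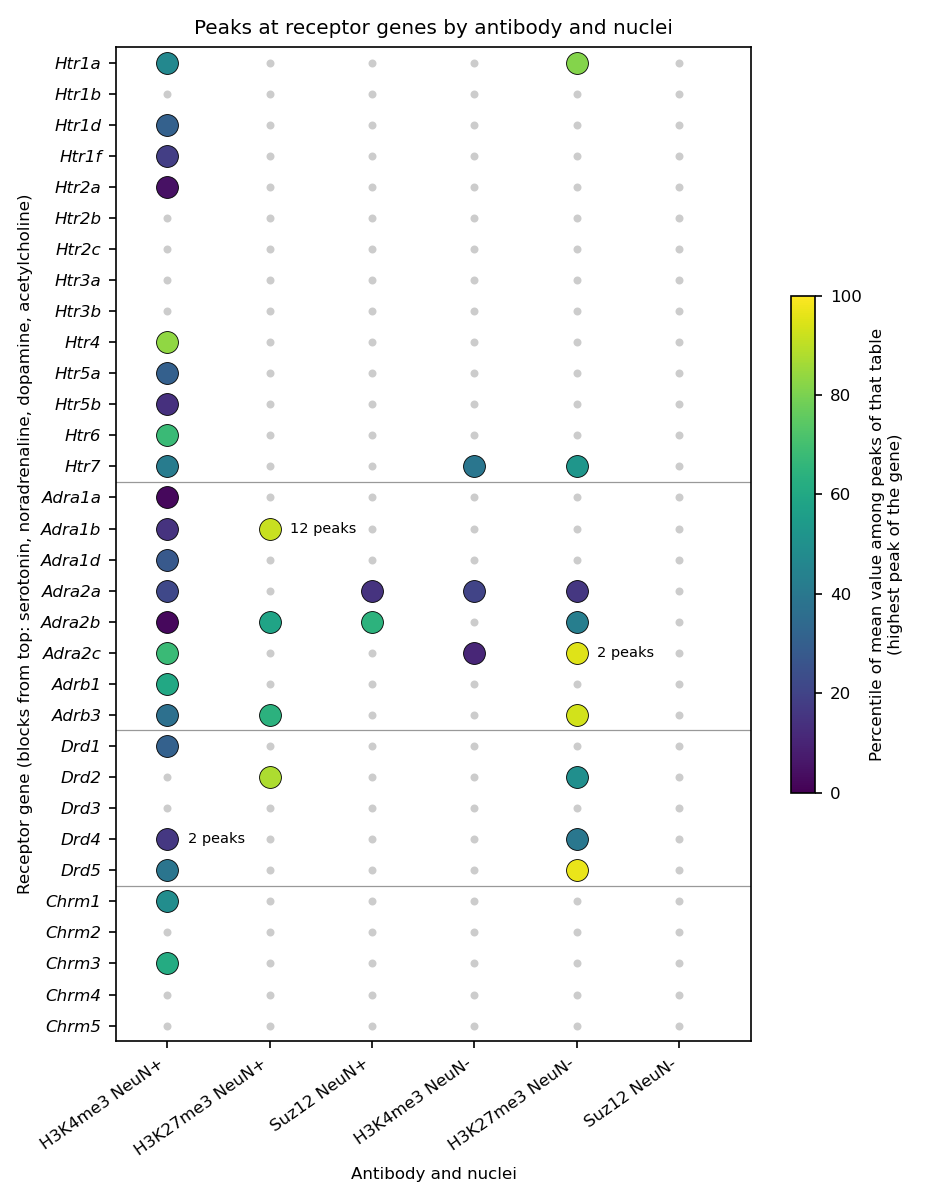
Each of 32 of the 33 receptor genes is a line and each antibody and fraction a column, filled circles mark genes with a peak, and colour gives the percentile of the highest peak of the gene among all peaks of that table. The H3K4me3 NeuN+ column is filled for 22 of the genes drawn, the H3K27me3 NeuN- column for 9, and Adra1b carries 12 peaks for H3K27me3 in NeuN+ nuclei.

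The genes with neuronal H3K4me3 overlapped with those marked by H3K27me3 in NeuN- nuclei. Of the 23 receptor genes with H3K4me3 in NeuN+ nuclei, 8 (34.8%) had H3K27me3 in NeuN- nuclei, against 5.88% of all 11512 genes with neuronal H3K4me3. Counting promoter peaks only, it was 7 of 23 (30.4%) against 3.75%. Read from the other side, 8 of the 9 receptor genes with H3K27me3 in NeuN- nuclei (88.9%) had neuronal H3K4me3, against 55.0% of all 1232 such genes, and 3 of the 9 (33.3%) had H3K27me3 in NeuN+ nuclei, against 57.8%. The 8 genes were Htr1a, Htr7, Drd4, Drd5, Adra2a, Adra2b, Adra2c and Adrb3. These shares are descriptions without a test, and no difference in level between fractions was computed because the tables were normalised separately.

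At single genes the windows of both marks were close but rarely the same, and distances are given between their centres. At Drd5 the centres of the neuronal H3K4me3 peak and the NeuN- H3K27me3 peak were 42 bp apart. At Drd4 the H3K27me3 centre was 519 bp from that of the nearer H3K4me3 window, at Adrb3 541 bp, at Htr1a 666 bp, at Adra2c 698 bp and at Htr7 949 bp. At Adra2b and Adra2a the distances were 1731 and 2189 bp. All 3 receptor genes with H3K4me3 in NeuN- nuclei (Htr7, Adra2a and Adra2c) also had H3K27me3 in the same fraction, which was the case for 5.30% of all genes with H3K4me3 there. Counting promoter peaks only, it was 2 of 3 (Adra2c and Htr7) against 2.09%, as the H3K27me3 peak of Adra2a lay in the 3' UTR. The windows of both marks in NeuN- nuclei shared 0 bases. Their centres were 564 bp apart at Adra2c (nearer H3K27me3 peak), 1051 bp at Htr7 and 2347 bp at Adra2a. In these sorted populations a mark on fewer nuclei and less of a mark per nucleus cannot be told apart, nor can marks on the same nuclei and on different nuclei.

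The fractions were checked against marker genes of their cells. H3K4me3 in NeuN+ nuclei was present at 8 of 9 neuronal markers, among them Rbfox3, Camk2a and Slc17a7, and at 2 of 18 non-neuronal markers (Mbp and Slc1a3). In NeuN- nuclei it was present at 0 of 9 neuronal markers but at only 1 of 18 non-neuronal markers, Olig1, so most markers that define glial and vascular cells were without a peak in this fraction. H3K27me3 in NeuN- nuclei lay at 4 of 9 neuronal markers (Gad1, Gad2, Rbfox3 and Slc17a7) and at 3 of 18 non-neuronal markers (Cldn5, Flt1 and Pdgfra). Each library held between 96023 and 548706 reads in peaks for H3K4me3 NeuN+, from 23794 to 52344 for H3K27me3 NeuN+ and from 6652 to 33035 for Suz12 NeuN+, and from 39320 to 120004, 19132 to 78250 and 11887 to 66148 in NeuN- nuclei. A receptor value in H3K4me3 NeuN+ rested on a median of 17 reads, whereas in H3K27me3 NeuN- the median was 5 reads and 41.7% of the values rested on 3 reads or fewer. In H3K27me3 NeuN+, Suz12 NeuN+ and H3K4me3 NeuN- the reads are estimates, because the value of 1 read could not be settled for 5 of their columns.

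Neuronal H3K4me3 was below the median of the table at most receptor promoters. The values are the deposited normalised reads in a window of 401 bp. The median over the 24 receptor peaks was 18.7, against 23.7 over all peaks of the table, and 19 of the 24 lay below that overall median. Means over the 12 libraries ran from 7.41 at Adra2b to 31.5 at Htr4. By coupling the median level was 21.2 for Gs-coupled, 16.0 for Gq/11-coupled and 15.6 for Gi/o-coupled receptors. The 2 muscarinic peaks, at Chrm1 and Chrm3, had a median of 24.7, the 9 serotonin peaks 18.7 and the 4 dopamine peaks 16.6.

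Htr4 encodes a Gs-coupled serotonin receptor. Its H3K4me3 values in NeuN+ nuclei were 34.7, 21.5 and 34.5 in WT, 18.5, 31.2 and 33.3 in Mutyh-/-, 34.5, 18.5 and 46.1 in Ogg1-/- and 36.1, 36.2 and 32.6 in DKO. All genotypes overlapped with WT, and the limma log2 fold changes were between -0.13 and 0.23. Htr6, another Gs-coupled serotonin receptor, had 41.2, 25.4 and 22.6 in WT, 25.1, 20.2 and 40.3 in Mutyh-/-, 25, 13.3 and 35.4 in Ogg1-/- and 9.02, 31.4 and 42.5 in DKO. Its DKO libraries spanned a wider range than the WT libraries and lay on both sides of them.

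Adra2c encodes an alpha-2 adrenergic receptor, a Gi/o-coupled receptor that also acts as an autoreceptor on noradrenergic terminals. Its neuronal H3K4me3 was the highest of the 24 peaks in WT, with 41.2, 29.3 and 31.2, against 29.4, 23.9 and 28.0 in Mutyh-/-, 14.3, 17.4 and 39.2 in Ogg1-/- and 36.1, 14.5 and 26.5 in DKO. The means were lower in all knockouts, but each group overlapped with WT, and the log2 fold changes of -0.30, -0.62 and -0.46 had an SE of 0.43 in limma. Without the third Ogg1-/- library, the Ogg1-/- change was -1.04 with an unadjusted p of 0.0241 in limma. That library was the highest of the Ogg1-/- group, and no other alternative called the peak. The share of all peaks called without it is not given here.

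The order of H3K4me3 levels among receptors was not resolved by the WT ranges of neighbouring peaks. In WT it ran from Adra2c (33.9 ± 6.38, SD, n = 3), Htr4 (30.2 ± 7.58, SD, n = 3) and Htr6 (29.7 ± 10.0, SD, n = 3) down to Adra1a and Adra2b (6.37 ± 3.90, SD, n = 3). All 23 neighbours in this order overlapped in their WT replicates. These ranges include differences in total signal between the WT libraries, and the order within each library was not compared. Within a peak the highest WT library was between 1.41 and 6.07 times the lowest, with a median of 2.20, leaving out Adra1a, which had 0 in one library. WT replicate 2 was the lowest of the 3 WT libraries at 15 of the 24 peaks. Its deposited total over all peaks was also the lowest, 230328 against 343118 and 314748. Over all libraries for this mark in NeuN+ nuclei, these totals ran from 210553 to 421957.

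Chrm1 and Chrm3 encode Gq/11-coupled muscarinic receptors, of which Chrm1 is the main type of hippocampal pyramidal cells. Chrm1 had neuronal H3K4me3 values of 24.4, 13.7 and 37.7 in WT, 21.8, 30.3 and 22.8 in Mutyh-/-, 20.2, 13.3 and 26.9 in Ogg1-/- and 18, 26.5 and 25 in DKO and its window held 3 CpG. Chrm3 had 29.6, 8.78 and 29.1 in WT, 47.9, 19.3 and 31.5 in Mutyh-/-, 34.5, 12.3 and 33.1 in Ogg1-/- and 11.3, 33.0 and 22.7 in DKO. At both genes the knockout libraries overlapped with WT, whose second library was the lowest of the 3.

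Adrb1, the Gs-coupled beta-1 adrenergic receptor, had 42.4, 17.6 and 18.3 in WT, 28.3, 20.2 and 41.2 in Mutyh-/-, 11.9, 17.4 and 45.4 in Ogg1-/- and 13.5, 29.8 and 24.3 in DKO. Htr1a had 18, 11.7 and 22.6 in WT, 15.3, 16.5 and 31.5 in Mutyh-/-, 27.4, 19.5 and 31.5 in Ogg1-/- and 22.6, 29.8 and 28 in DKO. In DKO 2 of the 3 libraries were above the highest WT library and the third was just below it, with a log2 fold change of 0.63 (SE 0.44, limma adjusted p = 1.00). The difference was not called, with an unadjusted limma p of 0.165, but was called with TMM factors (unadjusted limma p of 0.0418) and with cyclic loess scaling (0.0382). The share of all peaks called with either scaling is not given here. Drd5 had 33.4, 14.6 and 11.8 in WT, 6.54, 11 and 19.3 in Mutyh-/-, 14.3, 16.4 and 45.4 in Ogg1-/- and 20.3, 30.6 and 27.3 in DKO, each knockout overlapping with WT. The lowest means besides Adra2b were those of Adra1a, 7.80, and Htr2a, 9.70, the Gq/11-coupled serotonin receptor at which many hallucinogens act.

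**Figure D2:**
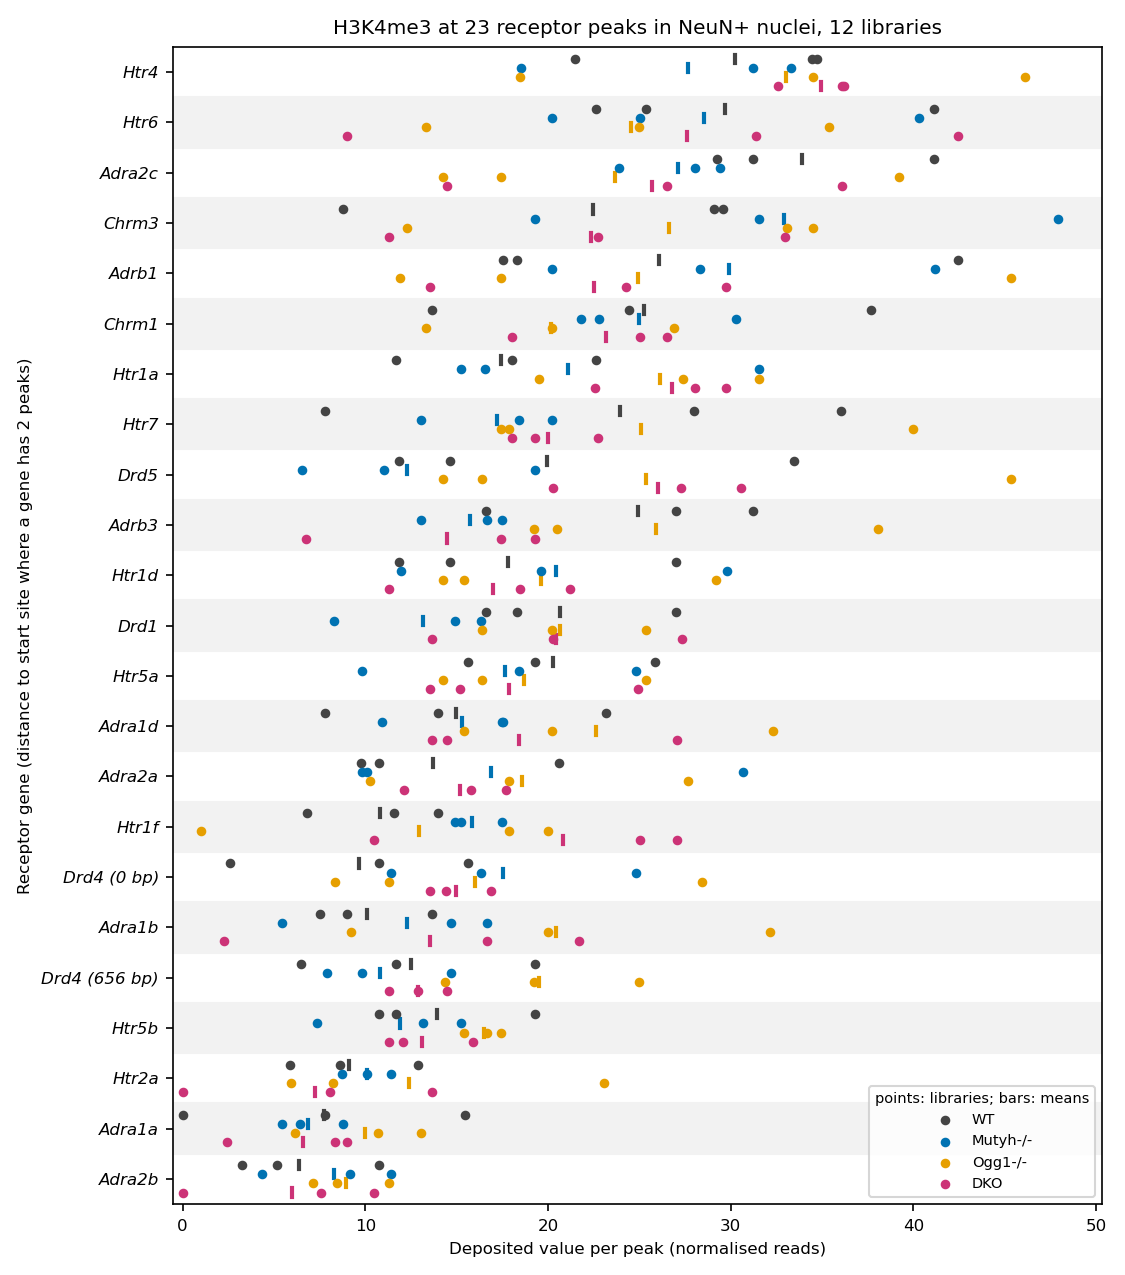
Deposited H3K4me3 values in NeuN+ nuclei are plotted along the horizontal axis for 23 of the 24 receptor peaks, ordered by mean, with one point per library, colours for the 4 genotypes and a bar at each genotype mean. Genotypes intermingle at nearly all peaks, and the means rise from 7.41 at Adra2b to 31.5 at Htr4.

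Neuronal H3K4me3 at receptor promoters did not pass the limma test in any knockout. The thresholds of the study for a differentially enriched region were kept: a peak was called where the unadjusted p of the knockout against WT in limma was below 0.05 and the log2 fold change was larger than 0.5 in either direction. The test was not that of the study, which used edgeR, so the numbers of called peaks are not comparable with those of the study. Of the 24 receptor peaks, 0 were called in Mutyh-/-, Ogg1-/- and DKO, where 0.911%, 0.966% and 1.46% of all peaks were called, and 0 had an unadjusted limma p under 0.05. edgeR and DESeq2 on the recovered reads each called 1 receptor peak, and the share of all peaks these tests called is not given here. The SE of a log2 fold change at these peaks was between 0.40 and 0.90. A change larger than its SE could also go uncalled, as at Adrb3 in DKO (-0.82, SE 0.49, an unadjusted limma p of 0.108). The median log2 fold change over the receptor peaks was 0.14, 0.22 and 0.00 in Mutyh-/-, Ogg1-/- and DKO, beside -0.07, 0.08 and -0.02 over all peaks. Of the 10 peaks of neuronal markers, 1 was called, Gad1, which was lower in Mutyh-/- with 24.4, 6.83 and 16.2 in WT and 5.45, 1.84 and 4.38 in Mutyh-/- (-1.71, an unadjusted limma p of 0.0458, called under 10 of 19 alternatives).

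In Mutyh-/- neurons 3 receptor genes had H3K4me3 values that did not overlap with WT, where 5.77% of all peaks had none, and 2 of them are described here. Drd1, the Gs-coupled dopamine receptor of the D1 class, was lower, with 27, 16.6 and 18.3 in WT and 16.3, 8.27 and 14.9 in Mutyh-/-. Htr1f, a Gi/o-coupled serotonin receptor, had 11.6, 6.83 and 14.0 in WT and 15.3, 17.5 and 14.9 in Mutyh-/-, so the Mutyh-/- libraries were above WT by a narrow margin. The limma log2 fold changes of Drd1 and Htr1f were -0.63 (SE 0.49) and 0.56 (SE 0.69), and neither passed. In Ogg1-/- and DKO 0 receptor peaks were without overlap, against 3.68% and 5.02% of all peaks.

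Adra1b stood out by the extent of its neuronal H3K27me3. This gene for a Gq/11-coupled alpha-1 adrenergic receptor had 12 H3K27me3 peaks in NeuN+ nuclei, whereas the median gene of the table had 1 and 19 of 2209 genes (0.860%) had as many or more. The peaks spanned 310975 bp on chr11:43799516-44110490 (GRCm38), with a median gap of 25263 bp. Of the 12 peaks, 4 lay inside Adra1b (43774606 to 43901210, minus strand) and 6 inside the neighbouring lincRNA gene Gm12153 (43959089 to 44134987, plus strand). All 12 carried the name Adra1b in the authors' annotation, including those inside Gm12153, so the name covers the region upstream of the receptor as well.

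The promoter peak of Adra1b was the highest H3K27me3 receptor peak in neurons, with a mean of 10.3, at the 91.5 percentile of the table. It coincided with the H3K4me3 peak of the gene, the window centres being 24 bp apart with 377 bp shared, and held 45 CpG, whereas the other 11 peaks held between 0 and 6. H3K27me3 at this promoter was 13.1, 8.86 and 16.4 in WT, 2.03, 13.3 and 6.99 in Mutyh-/-, 7.93, 2.09 and 21.6 in Ogg1-/- and 8.74, 5.82 and 16.8 in DKO. H3K4me3 at the same promoter was 9.0, 13.7 and 7.54 in WT, 5.45, 14.7 and 16.6 in Mutyh-/-, 32.1, 9.23 and 20.0 in Ogg1-/- and 2.26, 21.7 and 16.7 in DKO. Knockout libraries lay on both sides of WT for both marks, and the largest limma log2 fold changes were -0.94 for H3K27me3 in Mutyh-/- (SE 0.76) and 0.84 for H3K4me3 in Ogg1-/- (SE 0.69).

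Summed over the 12 peaks, H3K27me3 at Adra1b was 60.2, 58.7 and 59.5 in WT, 40.6, 64.2 and 59.0 in Mutyh-/-, 53.5, 47.0 and 66.8 in Ogg1-/- and 59.0, 66.9 and 97.9 in DKO. The third DKO library was the highest of the 12, and the other DKO libraries were near WT. Of the distal peaks, the one at -56910 bp from the start site had the highest mean, 6.45, with 8.76, 2.21 and 12.9 in WT, 2.03, 7.74 and 5.00 in Mutyh-/-, 3.96, 6.27 and 7.19 in Ogg1-/- and 7.65, 4.85 and 8.82 in DKO. The WT libraries alone covered nearly the whole range of this peak.

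**Figure D3:**
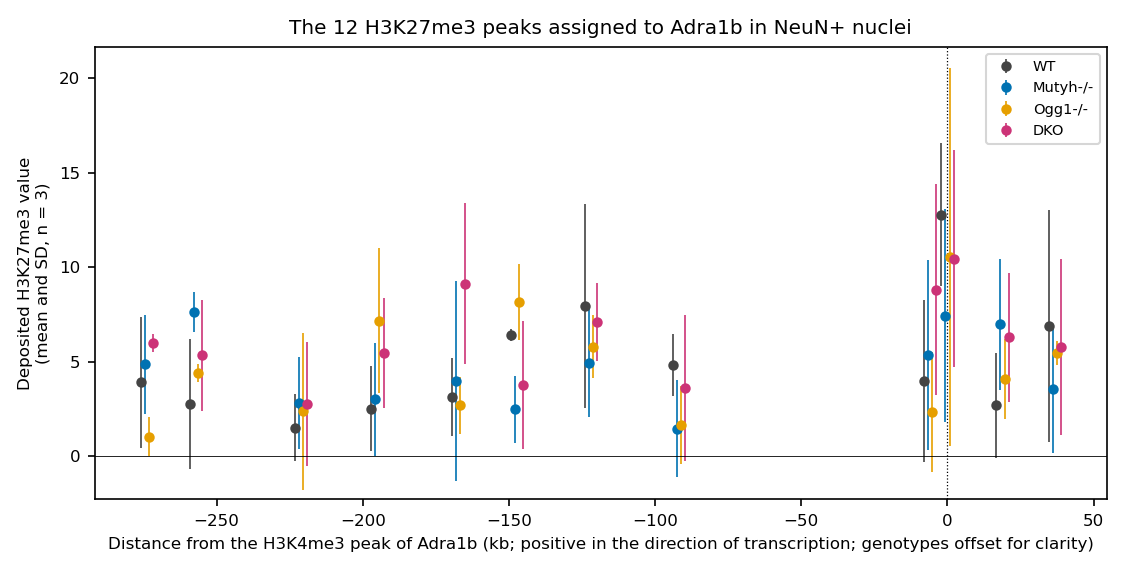
H3K27me3 in NeuN+ nuclei is plotted for the 12 peaks of Adra1b as the mean and SD of 3 libraries per genotype, against the distance in kb from the H3K4me3 peak of the gene. The promoter peak at 0 had the highest mean over the 12 libraries, 10.3, and the other peaks had means of at most 6.45.

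Drd2, a Gi/o-coupled dopamine receptor, had H3K27me3 at its promoter in both fractions and no H3K4me3 peak in either. In NeuN+ nuclei its H3K27me3 values were 3.29, 7.75 and 3.45 in WT, 8.11, 9.95 and 12.0 in Mutyh-/-, 3.96, 3.14 and 15.4 in Ogg1-/- and 4.37, 18.4 and 20.1 in DKO. All Mutyh-/- libraries were above WT, and 2 of the 3 DKO libraries were. The limma log2 fold changes of 0.99 (SE 0.79) in Mutyh-/- and 1.24 (SE 0.79) in DKO did not pass. Without the first DKO library, the DKO change was 1.88 with an unadjusted limma p of 0.0268. That library was the lowest of the DKO group, and no other alternative called the peak. The share of all peaks called without it is not given here. In NeuN- nuclei the peak, whose window overlapped with the neuronal one by 50 bp, had 0, 0.829 and 5.77 in WT and 9.61, 9.50 and 3.47 in Mutyh-/-, with overlapping groups.

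Adrb3, a Gs-coupled beta adrenergic receptor best known from adipose tissue, had neuronal H3K4me3 at its promoter and neuronal H3K27me3 upstream, at -4779 bp from the start site. H3K27me3 at the upstream peak was 3.29, 7.75 and 6.89 in WT, 1.01, 2.21 and 3.0 in Mutyh-/-, 1.98, 8.36 and 4.11 in Ogg1-/- and 12.0, 9.69 and 10.4 in DKO. Mutyh-/- libraries were all below and DKO libraries all above WT, with limma log2 fold changes of -1.17 (SE 0.91) and 0.81 (SE 0.91) that did not pass. H3K4me3 at its promoter was 27, 16.6 and 31.2 in WT, 13.1, 17.5 and 16.6 in Mutyh-/-, 38.1, 20.5 and 19.2 in Ogg1-/- and 6.77, 19.3 and 17.4 in DKO. The DKO values of H3K4me3 reached into the WT range, and the log2 fold change was -0.82 (SE 0.49, limma adjusted p = 1.00). With TMM factors in limma, the change was -0.82 with an unadjusted p of 0.0424. The share of all peaks called with these factors is not given here.

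Adra2b, a Gi/o-coupled alpha-2 adrenergic receptor, was the single receptor gene with peaks for all 3 antibodies in NeuN+ nuclei. Its Suz12 peak shared 361 bp with its H3K4me3 peak at the start site, whereas the H3K27me3 peak lay upstream, at -2252 bp. H3K4me3 was the lowest of the 24 receptor peaks, with 5.15, 10.7 and 3.23 in WT, 4.36, 9.19 and 11.4 in Mutyh-/-, 7.14, 11.3 and 8.46 in Ogg1-/- and 0, 10.5 and 7.58 in DKO. Suz12 was 9.39, 17.8 and 10.7 in WT, 0, 34.2 and 7.10 in Mutyh-/-, 0, 14.1 and 5.64 in Ogg1-/- and 9.35, 16.7 and 13.4 in DKO. In each genotype the second Suz12 library was the highest. H3K27me3 was 2.19, 0 and 6.03 in WT, 4.06, 5.53 and 9.99 in Mutyh-/-, 1.98, 2.09 and 13.4 in Ogg1-/- and 7.65, 8.72 and 4.81 in DKO, again with overlapping groups.

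Adra2a, the Gi/o-coupled alpha-2A receptor, had its Suz12 peak in the exon, 2438 bp from the start. Suz12 there was 0, 8.91 and 18.8 in WT, 3.28, 7.25 and 0 in Mutyh-/-, 11.9, 1.18 and 6.58 in Ogg1-/- and 0, 3.13 and 0 in DKO. WT itself ran from no read to the highest value of the 12 libraries, and the DKO change of -1.86 (SE 1.24, limma adjusted p = 0.999) did not pass. Without the first WT library it was -3.13 with an unadjusted limma p of 0.0228. That library was the lowest of the WT group, and no other alternative called the peak. The share of all peaks called without it is not given here. Its neuronal H3K4me3 was 20.6, 9.76 and 10.8 in WT, 9.81, 10.1 and 30.7 in Mutyh-/-, 17.9, 10.3 and 27.7 in Ogg1-/- and 15.8, 17.7 and 12.1 in DKO, which overlapped in all genotypes. In Suz12 NeuN+ 0 of the 2 receptor peaks were called and 0 had an unadjusted limma p under 0.05, where 5.16%, 3.74% and 2.58% of all peaks were called in Mutyh-/-, Ogg1-/- and DKO. In Mutyh-/-, where the replicate numbers met the check for pairs, the fit with the replicate block called 13.3% of all peaks and again 0 receptor peaks. Both overlapped with WT in all knockouts, where 7.61%, 8.26% and 5.68% of all peaks did not.

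Over the 15 neuronal H3K27me3 receptor peaks, 0 were called in any knockout, where 3.78%, 3.82% and 3.36% of all peaks were called in Mutyh-/-, Ogg1-/- and DKO, and 0 had an unadjusted limma p under 0.05. In data simulated for H3K27me3 NeuN+, the fit called 17% of peaks changed by a log2 fold change of 1 and 42% at 2. The 0 calls therefore do not show that these peaks were unchanged. With TMM factors or cyclic loess scaling in limma, 1 was called, the Adra1b peak at -192098 bp from the start site, in Gm12153, which was higher in Mutyh-/- by 1.77 and 1.89 at an unadjusted p of 0.0482 and 0.0350. At this peak the values were 0, 6.64 and 1.72 in WT and 7.10, 8.85 and 6.99 in Mutyh-/-. The share of all peaks called with either scaling is not given here. In Mutyh-/-, 4 receptor peaks had no overlap with WT, where 9.15% of all peaks had none. These were the same Adra1b peak and Drd2, which were higher, and the Adra1b peak at -82173 bp and Adrb3, which were lower. In DKO 1 receptor peak, Adrb3, had no overlap with WT against 9.08% of all peaks, and in Ogg1-/- 0 did against 9.17%.

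In DKO the neuronal H3K27me3 receptor peaks had a positive median. The median log2 fold change was 0.96 over the 15 peaks, beside -0.01 over all peaks, and 11 of the 15 were positive, beside 49.5% of all peaks. It was 0.97 with TMM factors and 1.00 with cyclic loess scaling. Summed over the 15 peaks, H3K27me3 was 69, 74.2 and 75.8 in WT, 53.8, 81.9 and 83.9 in Mutyh-/-, 61.4, 60.6 and 99.7 in Ogg1-/- and 83.0, 104 and 133 in DKO. The DKO libraries were above the WT libraries, but as a share of all values of the library the groups overlapped (0.239% to 0.391% in DKO and 0.201% to 0.277% in WT). Since 12 of the 15 peaks belong to one region at Adra1b, the peaks are not independent, and this sum was given no test.

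In NeuN- nuclei H3K27me3 was found at 8 receptor promoters and at 2 other receptor peaks. The median over the 10 receptor peaks was 4.53, near the 4.47 of all peaks, but 3 genes ranked high in the table. Drd5, the Gs-coupled D5 dopamine receptor, had the highest mean, 11.9, at the 96.8 percentile, with 7.94, 12.4 and 6.92 in WT, 23.1, 3.17 and 5.78 in Mutyh-/-, 17.5, 2.45 and 19.1 in Ogg1-/- and 24.3, 7.40 and 12.5 in DKO. The first library of each knockout was above WT and the second of Mutyh-/- and Ogg1-/- below it. Adra2c followed with a mean of 10.6 and had 10.6, 2.49 and 15.0 in WT, 18.3, 2.11 and 5.78 in Mutyh-/-, 22.8, 0.817 and 8.35 in Ogg1-/- and 22.5, 8.32 and 10.2 in DKO. Adrb3 had a mean of 9.80, with 7.94, 6.63 and 11.5 in WT, 17.3, 13.7 and 5.78 in Mutyh-/-, 12.3, 0 and 16.7 in Ogg1-/- and 14.7, 1.85 and 9.08 in DKO. All 3 genes overlapped with WT in every knockout.

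The receptor signal for H3K27me3 in NeuN- nuclei moved with the library. Summed over the 10 peaks it was 49.0, 42.3 and 54.2 in WT, 111, 62.3 and 30.1 in Mutyh-/-, 104, 19.6 and 73.9 in Ogg1-/- and 98.0, 24 and 63.6 in DKO. The lowest sums, in the second Ogg1-/- and DKO libraries, came from the libraries with the lowest share of reads in promoter peaks, 3.75% and 3.50%, in a table where that share reached 43.6%. Over all peaks of this table the median log2 fold change was 0.29, 0.58 and 0.41 in Mutyh-/-, Ogg1-/- and DKO, and it was -0.01, -0.04 and -0.01 after cyclic loess scaling. The receptor medians were 0.10, -0.00 and 0.38, and -0.04, -0.64 and -0.12 after that scaling. The part of the promoter share in these values was not tested.

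**Figure D4:**
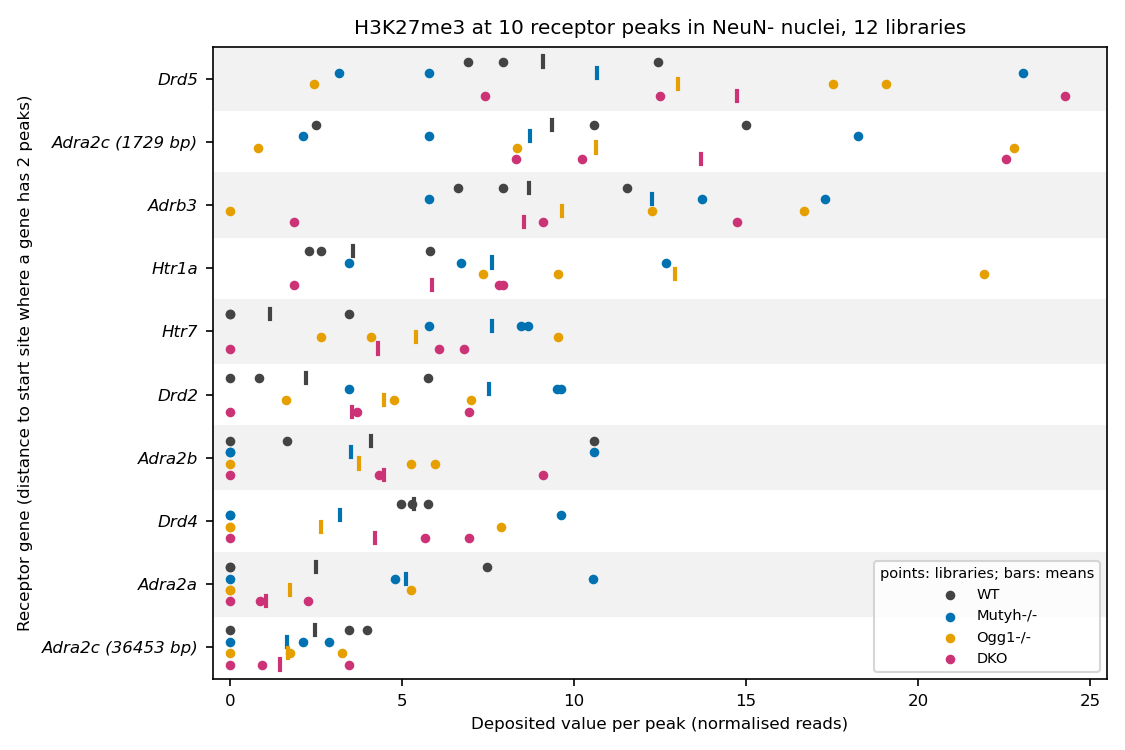
Deposited H3K27me3 values in NeuN- nuclei are plotted along the horizontal axis for the 10 receptor peaks, ordered by mean, with one point per library, colours for the 4 genotypes and a bar at each genotype mean. Drd5 has the highest mean, 11.9, and at Htr7 the WT libraries are at 0, 0 and 3.46 whereas those of Mutyh-/- lie between 5.78 and 8.65.

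Htr7 was the one receptor gene called in a knockout. It encodes a Gs-coupled serotonin receptor, and its H3K27me3 peak in NeuN- nuclei, 635 bp from the start, had 0, 0 and 3.46 in WT, 8.65, 8.45 and 5.78 in Mutyh-/-, 2.63, 4.09 and 9.54 in Ogg1-/- and 6.07, 0 and 6.81 in DKO. All Mutyh-/- libraries were above all WT libraries, and those of Ogg1-/- and DKO reached into the WT range. H3K27me3 rose in Mutyh-/- by 2.37 on the log2(value + 1) scale with an SE of 1.16 and an unadjusted limma p of 0.0403 (adjusted p = 0.998). The call is thus 1 of 10 receptor peaks where 2% of all peaks were called, and it did not pass correction for multiple testing. In Ogg1-/- and DKO 0 receptor peaks were called and 0 had an unadjusted limma p under 0.05, where 4.18% and 2.3% of all peaks were called.

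The Htr7 call rested on few reads. In WT 3 reads were recovered in all, against 22 in Mutyh-/-, a ratio of 7.27 with an exact 95% interval from 2.18 to 37.9 that covers counting error only. The ratios for Ogg1-/- and DKO were 4.71 (1.35 to 25.2) and 3.93 (1.08 to 21.5), and all 3 share the same WT libraries. edgeR gave an unadjusted p of 0.0954 and DESeq2 of 0.0465 for Mutyh-/-. Leaving out WT replicate 1, WT replicate 2, Mutyh-/- replicate 1 or Mutyh-/- replicate 2 ended the call. Over 20 alternatives the log2 fold change lay between 2.01 and 3.09 and the adjusted p between 0.773 and 1.

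Single peaks of marker genes were called in the same table. In Mutyh-/- a peak of the neuronal marker Rbfox3 was called higher, with 2.65, 0 and 1.15 in WT and 6.73, 10.6 and 11.6 in Mutyh-/- (log2 fold change 2.39). It was 1 of 16 neuronal marker peaks, where 2% of all peaks were called. In DKO another Rbfox3 peak (2.34) and Cldn5 of endothelial cells (2.43) were called higher. They were 1 of 16 neuronal and 1 of 4 non-neuronal marker peaks, where 2.3% of all peaks were called. These calls had an unadjusted limma p of 0.0393, 0.0423 and 0.0363, and each was lost without WT replicate 2, among other libraries. Summed over the 16 peaks of the neuronal markers, H3K27me3 lay between 31.8 and 55.4 in WT, 33.8 and 122 in Mutyh-/-, 40.9 and 110.4 in Ogg1-/- and 36.1 and 117.9 in DKO. Over the 4 peaks of non-neuronal markers it lay between 3.46 and 5.29 in WT, 6.94 and 31.7 in Mutyh-/-, 0.817 and 30.7 in Ogg1-/- and 8.32 and 18.2 in DKO, so Mutyh-/- and DKO were above WT without overlap. These WT sums rest on few reads, as 1 read had a value of 1.32, 0.829 and 1.15 in the WT libraries. Of single peaks, 6.6% and 6.77% had no overlap with WT in Mutyh-/- and DKO. No such share was computed for sums of peaks. Beside these sums, the median log2 fold change over all peaks of the table was 0.29, 0.58 and 0.41 in Mutyh-/-, Ogg1-/- and DKO. The part of these shifts in the Htr7 value was not tested.

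Htr7 also had H3K4me3 in both fractions. In NeuN- nuclei this was 8.30, 8.67 and 9.45 in WT, 12.4, 10.4 and 11.4 in Mutyh-/-, 11.9, 5.59 and 4.26 in Ogg1-/- and 13.9, 8.58 and 7.82 in DKO. The Mutyh-/- libraries were above WT, where 9.24% of all peaks did not overlap, and the log2 fold change was 0.33 (SE 0.75, limma adjusted p = 1). In NeuN+ nuclei the values were 36.0, 7.81 and 28.0 in WT, 13.1, 20.2 and 18.4 in Mutyh-/-, 17.9, 17.4 and 40.0 in Ogg1-/- and 18, 19.3 and 22.7 in DKO. All knockout libraries except the third of Ogg1-/-, at 40.0, lay within the wide range of the neuronal WT libraries.

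Htr1a, a Gi/o-coupled serotonin receptor and the autoreceptor of raphe neurons, was the other receptor gene whose H3K27me3 groups did not overlap in NeuN- nuclei. It had 2.65, 5.80 and 2.31 in WT and 21.9, 7.35 and 9.54 in Ogg1-/-, where 9.78% of all peaks did not overlap. Ogg1-/- was higher in all 3 libraries, with a log2 fold change of 1.54 (SE 1.12, limma adjusted p = 0.963) that did not pass. Drd4, a Gi/o-coupled dopamine receptor, had 5.29, 4.98 and 5.77 in WT, 9.61, 0 and 0 in Mutyh-/- and 7.89, 0 and 0 in Ogg1-/-. In both knockouts the first library was above WT and the others held no read, and with cyclic loess scaling limma called it lower in Mutyh-/- (-1.91) and Ogg1-/- (-2.42), at an unadjusted p of 0.0417 and 0.0110. The share of all peaks called with that scaling is not given here. In Mutyh-/- and DKO 6.6% and 6.77% of all peaks did not overlap with WT, among them Htr7 in Mutyh-/- and 0 receptor peaks in DKO.

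The other H3K4me3 receptor peaks of NeuN- nuclei were those of Adra2a and Adra2c. Adra2a had 12.4, 7.09 and 0 in WT, 11.4, 9.51 and 1.63 in Mutyh-/-, 18.8, 0 and 7.10 in Ogg1-/- and 15.8, 3.57 and 5.59 in DKO. Adra2c had 13.8, 2.36 and 2.36 in WT, 12.4, 0.864 and 13 in Mutyh-/-, 13.9, 3.19 and 5.68 in Ogg1-/- and 0.929, 5.72 and 2.23 in DKO. Summed over the 3 receptor peaks, the first library of each genotype was the highest of the 12 (34.6 in WT, 36.2 in Mutyh-/-, 44.5 in Ogg1-/- and 30.6 in DKO), and the other 8 lay between 8.78 and 26.0. The same 4 libraries had 49.9% to 67.9% of their signal in promoter peaks and the other 8 had 23.4% to 38.1%, and the part of this in the receptor values was not tested. Neither gene was without overlap in any knockout, where 8.29% and 5.02% of all peaks were in Ogg1-/- and DKO. Of the 3 receptor peaks, 0 were called and 0 had an unadjusted limma p under 0.05, where 2.94%, 3.36% and 2.29% of all peaks were called in Mutyh-/-, Ogg1-/- and DKO.

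**Figure D5:**
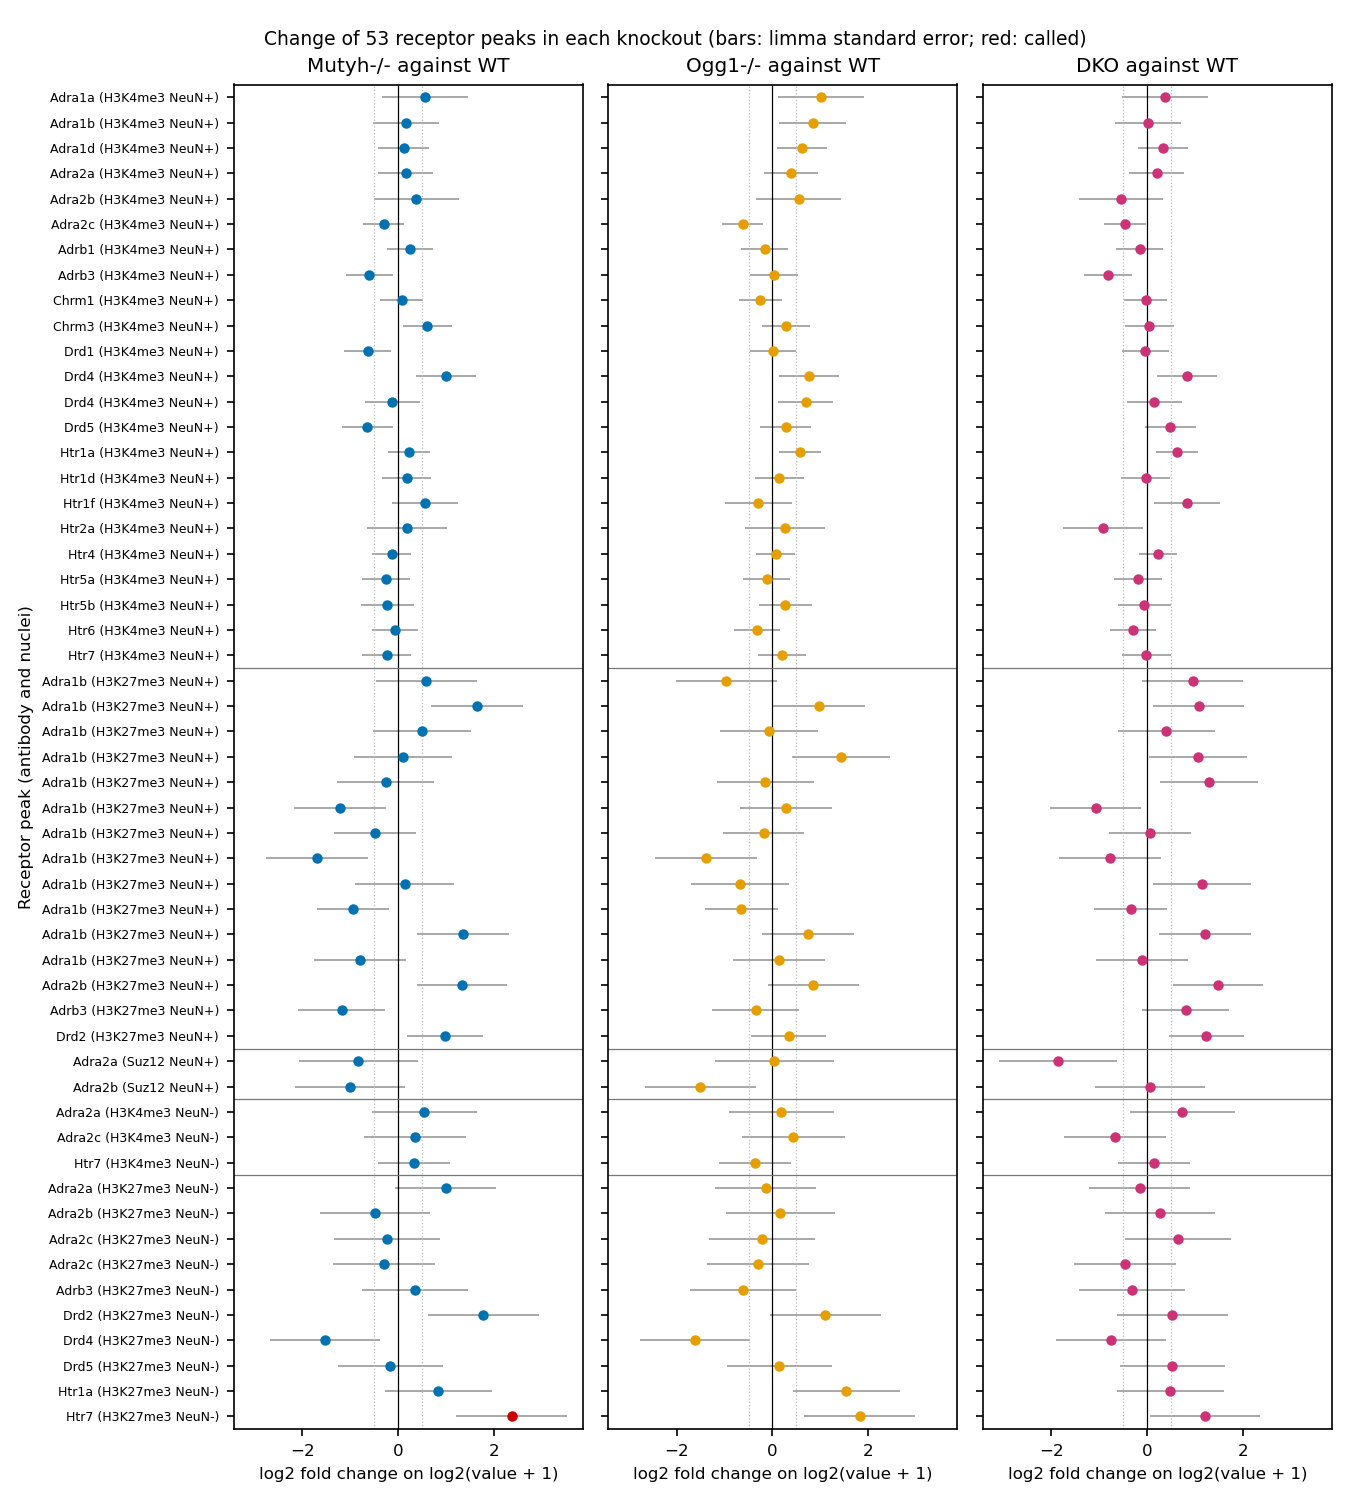
Log2 fold changes against WT on the log2(value + 1) scale are plotted for 53 of the 54 receptor peaks in 3 panels, one per knockout, with bars for the limma standard error and dotted lines at 0.5 in either direction. Of 159 points, 1 is red (called), Htr7 for H3K27me3 in NeuN- nuclei of Mutyh-/-, at 2.37.

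Over the whole series, 1 of 162 receptor peaks and contrasts was called, and the smallest adjusted p in limma was 0.915. For a DKO effect that differs from the sum of the single knockouts, 0 receptor peaks were called, where the call rate over all peaks in NeuN+ nuclei was 0.839% (H3K4me3), 3.92% (H3K27me3) and 5.16% (Suz12), and in NeuN- nuclei 3.03% (H3K4me3) and 2.47% (H3K27me3). With the replicate block 3 were called, Adra2b for Suz12 in NeuN+ nuclei (2.57, an unadjusted limma p of 0.0411), Adrb3 for H3K27me3 in NeuN+ nuclei (2.33, p of 0.0477 in limma, unadjusted) and Htr7 for H3K27me3 in NeuN- nuclei (-2.98, p of 0.0356 in limma, unadjusted), but the numbers did not meet the check for pairs in all contrasts of any table. The share of all peaks called non-additive with the block is not given here, so these 3 calls cannot be read as a trait of receptors. Against WT the block raised the calls over all peaks in every contrast, for H3K27me3 in NeuN- nuclei of Mutyh-/- from 34 to 83.

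Receptor promoters with neuronal H3K4me3 held more CpG than those without, with exceptions. RefSeq promoter windows of 300 bases were matched for 25 of the 33 receptor genes. The 16 genes with a neuronal H3K4me3 peak had a median of 25.5 CpG, with a range of 6 to 46, and the 9 without had a median of 5, with a range of 2 to 30. Over all genes the medians were 23 with the peak and 4 without. Among the 9 without, Chrm4 had 30 CpG and Drd2 had 23, and neither had neuronal H3K4me3. In the H3K4me3 windows themselves the receptors had a median of 32.5 CpG against 35 over all peaks, from 3 at Chrm1 to 65 at Htr7. This split is a description over genes, without a test.

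Motifs of factors known for neuronal genes were searched on both strands of the promoters of the 25 genes. The left part of the binding motif of the repressor REST, TTCAGCACC, was in 0 of these genes and in 0.433% of all genes with a promoter sequence. The right part, GGACAGC, was in Drd2, Htr2a and Htr5a and in 7.59% of all genes. The cyclic AMP response element TGACGTCA was in 0 of 25 and in 2.03% of all genes, and its first 5 letters, TGACG, which the full element also contains, were in Adra2a, Adrb1 and Htr7 and in 23.0% of all genes.

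Neuronal H3K4me3 was present at 17 of 19 G protein subunit genes, 29 of 32 effector genes (adenylyl cyclases, phospholipases, kinases, channels) and 19 of 24 genes of desensitisation (arrestins, receptor kinases, Rgs proteins). It was present at 8 of 23 genes of transmitter synthesis, transport and breakdown and at 7 of 18 other amine and acetylcholine receptor genes. In this table Ache, the enzyme that breaks down acetylcholine, was higher in Mutyh-/-, with 18, 12.7 and 17.2 in WT and 29.4, 34.9 and 34.2 in Mutyh-/-. All Mutyh-/- libraries were above WT, with a log2 fold change of 1.01 (SE 0.45, an unadjusted limma p of 0.0307, adjusted p = 1.00), called under 17 of 20 alternatives but not without WT replicate 2 or Mutyh-/- replicate 2 or 3. Of the effector genes, Pde4d, a phosphodiesterase of cyclic AMP, was called lower in Mutyh-/- (-1.44) but under 14 of 19 alternatives only. It was -0.51 without Mutyh-/- replicate 1 and was not called by edgeR or DESeq2, at an unadjusted p of 0.0552 and 0.0541. Kcnj3, a potassium channel opened by Gi/o-coupled receptors, was called higher in Ogg1-/- (1.05) and under 13 of 20 alternatives, with 0.76 without WT replicate 2. Gnb1, a G protein beta subunit, was called lower in DKO with 37.3, 23.4 and 35.5 in WT and 0, 41.8 and 28.8 in DKO, a change of -1.58 that turned to 0.14 without DKO replicate 1. Among the desensitisation genes (19 peaks) and the other amine and acetylcholine receptor genes (7 peaks), 0 peaks were called in this table, and other tools were not counted for these lists. Ache was 1 of 9 synthesis and transport peaks, Pde4d and Kcnj3 were each 1 of 38 effector peaks, and Gnb1 was 1 of 19 G protein peaks. Of all peaks, 0.911%, 0.966% and 1.46% were called in Mutyh-/-, Ogg1-/- and DKO.

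In the other tables the calls in these lists were single peaks. For neuronal H3K27me3, Plcb4, a phospholipase C, was called lower in Mutyh-/- (-2.17), as 1 of 13 effector peaks where 3.78% of all peaks were called. Gnas, the Gs alpha subunit and the single G protein peak there, was called lower in Ogg1-/- (-2.0), where 3.82% were. The changes were -1.49 without Mutyh-/- replicate 1 for Plcb4 and -1.60 without WT replicate 2 for Gnas, and neither was then called. For neuronal Suz12, Slc18a3, the vesicular acetylcholine transporter, had 16.1, 29.7 and 10.7 in WT and 0, 30.0 and 2.03 in Mutyh-/-. It was called lower (-2.01), where 5.16% of all peaks were called, but under 7 of 18 alternatives only, and the change was -0.92 without Mutyh-/- replicate 1, at an unadjusted limma p of 0.335. With the replicate block, for which this contrast met the check for pairs, Slc18a3 had an unadjusted limma p of 0.0143 (adjusted p = 0.340). There 13.3% of all peaks were called. For H3K4me3 in NeuN- nuclei, Gna11, a Gq/11 alpha subunit, was called lower (-1.63) as 1 of 8 G protein peaks, and Chrna5, a nicotinic receptor subunit, higher (2.05) in DKO, where 2.29% of all peaks were called. They were not called without DKO replicate 2 (-1.09) and without WT replicate 1 (1.35), respectively.

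For H3K27me3 in NeuN- nuclei, Chat, which makes acetylcholine, had no read in any WT library and was called in all 3 knockouts. It was 1 of 6 synthesis and transport peaks, where 2%, 4.18% and 2.3% of all peaks were called in Mutyh-/-, Ogg1-/- and DKO. With 3 reads set for the WT group, the ratio for Chat was 5.29 in Mutyh-/-, 5.00 in Ogg1-/- and 3.93 in DKO, all against the same WT libraries. These ratios leave out counting error and the spread between libraries, so they are not lower limits. Leaving out any single WT library ended the call in each knockout. Adcy8, an adenylyl cyclase, was called lower in DKO there (-2.44) as 1 of 3 effector peaks, and was not called without DKO replicate 2 or 3 (-2.0 in both). For Suz12 in NeuN- nuclei Gnb5, a G protein beta subunit without a read in WT, was called higher in DKO, where 6.73% of all peaks were called. Its ratio was 4.00 with 3 reads set for the WT group, again without counting error, and leaving out any single WT library ended the call. None of these calls in the lists had a limma adjusted p below 0.05.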

How the data were processed

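The deposited tables hold signal, that is reads per consensus peak of 401 bp divided by a factor for each library, made by the authors. Per the labels and methods, single-end reads were aligned to GRCm38/mm10 with Bowtie2 2.3.5.1, regions were called with SICER (epic2), peaks present in at least 2 of 3 replicates were kept and counted with DiffBind 3.10.1, and peaks were annotated to the closest gene with ChIPseeker 1.36. How duplicates, blacklisted regions and input were treated is not given in the sources used here. The 6 tables hold 72 of 96 samples, and 24 input libraries were not used here. The tables have 0 value columns of samples outside the labels. No pair of libraries in a table held identical values. That replicates came from separate pools is not stated in the labels, so p-values measure the spread between these libraries.

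limma 3.58.1 in R 4.3.3 was fitted to log2(value + 1) of all peaks of a table, with trend, 12 libraries and genotype as the term, which understates changes at low values. Tables were normalised separately and never tested against each other. Adjusted p is the Benjamini-Hochberg value over all peaks of a contrast. The fit was tested on simulated data for 2 tables, with changed peaks drawn from above the lowest 25%. At a log2 fold change of 1 it called 87% of changed peaks in H3K4me3 NeuN+ and 17% in H3K27me3 NeuN+. At a log2 fold change of 2 it called 99% and 42%. Of unchanged peaks it called 4.26% and 4.76%. In the H3K27me3 and Suz12 tables the prior degrees of freedom were infinite, and a peak's own spread had no weight in its p. Values are whole multiples of one step per library. Where all 12 columns passed a check of this step (H3K4me3 NeuN+, H3K27me3 NeuN- and Suz12 NeuN-), reads were recovered (100% of values within 0.01 steps) and tested with edgeR 4.0.16 and DESeq2 1.42.0. These tests were not run on the other tables, where TMM factors were computed on the deposited values, a choice made after seeing the data. Other alternatives were a pseudocount of 0.5, leaving out the lowest 25% of peaks, robust empirical Bayes, TMM factors, cyclic loess scaling, a replicate block and leaving out each library. Among the alternatives, the share of all peaks called was counted only for the replicate block against WT.

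The members and lists were chosen with earlier results of these data known. Peaks were named when called in a knockout, when among the 3 highest means of a table, or when the gene had peaks for 2 or more antibodies in a fraction. Called genes of the pathway lists were named up to 4 per list. Other peaks were named after their values were seen. The values of 1 receptor gene are not reported here, and counts and medians over receptor genes include it. Whether replicate numbers pair libraries was checked by the correlation of the deviations of libraries with the same number from their group means. All 3 were over 0.1 only for Mutyh-/- in the Suz12 NeuN+ table (0.388, 0.186 and 0.119), so the numbers were taken as pairs there and in no other contrast. All values printed without mention of the block come from the fit without it. Promoter sequences are from RefSeq (GRCm38.p6) and exons also from GENCODE. Intervals on reads cover counting error only.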

Additional observations from a re-analysis of the deposited data

Results flagged for a closer look

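Htr7 H3K4me3 differed from WT in opposite directions in the fractions in Mutyh-/-, without passing the limma test in either, among 12 pairs of overlapping receptor peaks and contrasts that were compared. In NeuN+ nuclei the WT mean was 23.9 and the Mutyh-/- mean 17.2, a difference of -6.71, with all 3 Mutyh-/- libraries below the WT mean. In NeuN- nuclei the WT mean was 8.81 and the Mutyh-/- mean 11.4, a difference of 2.57, with all 3 Mutyh-/- libraries above the WT mean. The log2 fold changes were -0.24 (SE 0.51) and 0.33 (SE 0.75), both smaller than their SE. The difference between the fractions was not tested, since their tables were normalised separately. The neuronal WT libraries ranged from 7.81 to 36.0. Log2 fold changes of opposite sign in NeuN+ and NeuN- nuclei were not particular to this case. They were also seen at Adra2c in Mutyh-/- (-0.30 and 0.35) and Ogg1-/- (-0.62 and 0.44). At Htr7 they were seen in Ogg1-/- (0.20 and -0.36) and DKO (-0.01 and 0.14) as well. In those cases the 3 knockout libraries were not all on one side of the WT mean in both fractions. Groups of 3 libraries are too small for a check of single outlying libraries.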

How the results depend on the processing

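For H3K4me3 NeuN+, the receptor calls went from 0 to 2 with TMM factors and 2 with cyclic loess scaling (Htr1a and Adrb3, both in DKO), and to 1 with edgeR and 1 with DESeq2. For H3K27me3 NeuN+, they went from 0 to 1 with TMM factors on the deposited values and 1 with cyclic loess scaling. For H3K27me3 NeuN-, they went from 1 to 3 with cyclic loess scaling and to 0 with edgeR. Leaving out single libraries gave 0 to 1 in H3K4me3 NeuN+, 0 to 1 in H3K27me3 NeuN+, 0 to 1 in Suz12 NeuN+ and 0 to 2 in H3K27me3 NeuN-, and the count was 0 under every alternative run for H3K4me3 NeuN- and for Suz12 NeuN-, which has no receptor peak. The share of all peaks called under these settings is not given here, so the added calls cannot be read as a trait of receptors. The cause of these changes was not tested.

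For non-additive DKO effects, the count went from 0 to 1 with TMM factors, to 1 with cyclic loess scaling and to 0 to 2 leaving out single libraries. With the replicate block it was 3 (Adrb3 H3K27me3 NeuN+, Adra2b Suz12 NeuN+ and Htr7 H3K27me3 NeuN-), without a share over all peaks to set beside it. The replicate block left the counts of receptor calls against WT at 0, 0, 0, 0, 1 and 0 in the 6 tables, and the numbers met the check for pairs in one contrast only, Mutyh-/- in Suz12 NeuN+, where calls over all peaks went from 40 to 103. Gnb1 H3K4me3 NeuN+ in DKO ranged from -2.57 to 0.14 leaving out single libraries and turned direction without DKO replicate 1. Depth limits the H3K27me3 and Suz12 values, of which between 33.3% and 41.7% rested on 3 reads or fewer, by estimate in the tables of NeuN+ nuclei.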

Other observations

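Receptor peaks took a small share of the H3K4me3 signal of neurons in all genotypes, 0.135% to 0.171% of the values of a library. The share for H3K27me3 in NeuN- nuclei ran from 0.0307% in the second Ogg1-/- library to 0.420% in the first DKO library. The Drd4 promoter held 2 neuronal H3K4me3 windows, with values of 2.57, 15.6 and 10.8 and of 19.3, 11.7 and 6.46 in the same WT libraries, so the library that was lowest in the first window was highest in the second.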
